A study of Canis lupus familiaris with 5 samples.

Results

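GL-1 and CLL-1390 are canine leukemia cell lines, and their expression profiles were the most correlated among the 5 lymphoid lines in the series. The labels nevertheless call GL-1 a B-cell leukemia and CLL-1390 a primitive T-cell leukemia. GL-1 and CLL-1390 form 2 of the 5 lines. The other 3 were 17-71, labelled a B-lymphoid malignancy, CL-1, labelled a primitive T-cell leukemia with alpha/beta receptors, and CLGL-90, labelled a leukemia of large granular lymphocytes and counted as T. All lines were grown in RPMI with 10% FBS and no treatment is named. Total RNA with a RIN, a measure of RNA integrity, above 9 was hybridised to Affymetrix canine arrays, 1 array per line. Each line is 1 culture from 1 tumour, so no value has a replicate array, and every spread below lies between lines. The pair was chosen by these same measurements, so all differences between the pair and the other lines are descriptions, and none was tested.

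Early blood cells carry transcription factors that hold several fates open, among them LMO2, ERG, MEIS1 and GFI1B, and these are largely shut down in most mature lymphocytes. Developing T cells then switch on TOX, LEF1 and the chemokine receptor CCR9, which guides progenitors to the thymus and lymphocytes to the gut. Mature antigen-presenting lymphocytes in turn display peptides on MHC class II molecules, whose assembly needs the invariant chain CD74.

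The correlation of GL-1 with CLL-1390 over 36661 probe sets was 0.921 (Pearson), against 0.876 to 0.912 for the other 9 pairs of lines. The highest of those 9 joined GL-1 with 17-71. These coefficients describe whole arrays, whose points share probe design, depth of hybridisation and normalization. Of 14164 genes, 453 stood log2 2 or more apart within the pair, compared with 563 to 860 in the other pairs. The median absolute difference over probe sets was log2 0.243 within the pair and 0.235 between GL-1 and 17-71. By that measure GL-1 was closer to 17-71 than to CLL-1390. Array medians lay between 6.87 and 6.996, and the median difference of the pair from the other lines over all genes was log2 0.01. The highest of 59 probe sets that serve as controls because dogs lack their sequences read 6.39 to 6.76 on the 5 arrays. A value under that level gave no measure of how little RNA was present, so the size of a difference against such a value depends on the background.

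The 2 groups were said not to overlap where both lines of the pair lay on one side of all 3 other lines, and the gap is the log2 distance between the nearest values of the groups. A gap of log2 1 means that the nearest lines differed 2-fold. Of 36661 probe sets, 3162 were higher in the pair without overlap (8.62%) and 2579 were lower (7.03%). Most of these gaps were narrow, with medians at gene level of 0.16 among higher and 0.13 among lower genes. A gap of log2 1 or more was seen in 230 probe sets on the higher side (0.627%) and in 117 on the lower side (0.319%). Of these, 60 and 52 had no gene symbol in the annotation and are not described further. At gene level, where the probe set of highest mean stood for a gene, 1193 of 14164 genes were higher without overlap (8.42%) and 1026 were lower (7.24%). A gap of log2 1 or more was left for 95 genes on the higher side (0.671%) and 40 on the lower side (0.282%). At a gap of log2 4 or more the gene counts were 9 and 1. Counts and gene lists use the probe set of highest mean, whereas the 20 higher and 15 lower genes with the widest gaps are described by their probe set of widest gap, which was not always the brightest. Because the rule used this contrast, the shares describe how the pair was set apart and nothing is read from them.

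The markers of the pair were far above background in both lines. CA2, carbonic anhydrase II, which interconverts carbon dioxide and bicarbonate, read 13.32 in GL-1 and 12.87 in CLL-1390, compared with 5.54 in 17-71, 4.53 in CL-1 and 4.06 in CLGL-90. Its gap of log2 7.34 was the widest of any named gene, and it was 6.11 when every value was raised to at least the highest control of its array. The other 2 probe sets of CA2 gave gaps of 5.85 and 6.53. Both lines of the pair thus stood together at the top of the scale while the other 3 lay at background. MS4A2, the beta chain of the high-affinity IgE receptor, stood at 11.31 and 12.68 in the pair and between 5.54 and 5.96 elsewhere, a gap of 5.35. Its other probe set gave a gap of 2.69. DACH1, a transcriptional cofactor of the network that specifies eye and limb, was at 10.92 in GL-1 and 11.46 in CLL-1390 but at 5.57 to 6.50 in the others. For CCR9 the pair read 11.50 and 11.16 and the other lines 6.79, 6.50 and 6.93. The 3 low values of CCR9 were just above the highest control of their arrays. LMO2, a bridging protein of blood stem cell transcription complexes, was 11.60 and 12.87 in the pair. On this probe set 17-71 was not at background but at 8.37, with CLGL-90 at 7.71 and CL-1 at 6.76. On the other probe set of LMO2 those lines read 6.23, 5.66 and 5.54, under the controls, and the gap was 1.75. The mean of the pair was 13.10 ± 0.31 (SD, n = 2 lines) for CA2 and that of the others 4.71 ± 0.75 (SD, n = 3 lines).

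**Figure D1:**
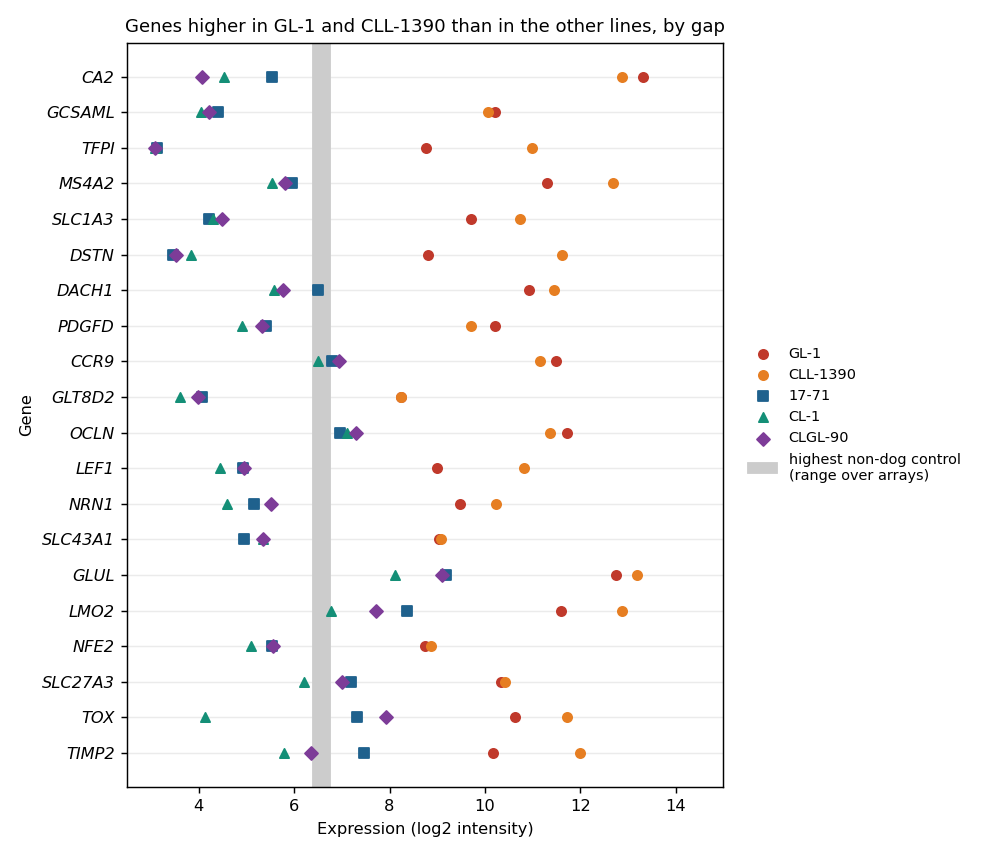
Expression (log2 intensity) of the 20 genes with the widest gaps above the other lines, 1 point per line and gene, each by its probe set of widest gap, with circles for GL-1 and CLL-1390 and the grey band for the range of the highest non-dog control over arrays. Both circles lie right of all other symbols in every row, from CA2 with a gap of 7.34 to TIMP2 with 2.70, and the other 3 lines lie under or in the band for many genes.

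Transcription factors of early blood cells were higher in the pair or overlapped, and LMO2, one of the 5 markers, is counted among them. Counts below cover the members with a probe set of 1 gene symbol that passed the filter. Here these were 32 of 39, and for MHC class II genes 14 of 20. In both lists the other members had no probe set of 1 gene symbol on the array, and the filter removed none. Shares in brackets are percent of the measured genes of a list. Over all 14164 genes, 8.42% were higher and 7.24% lower without overlap. Of 32 measured stem and early lymphoid factors, 11 were higher in the pair without overlap (34.4%), 0 were lower and 21 overlapped. Their median difference was log2 0.46 beside 0.01 over all genes. LEF1, the DNA-binding partner of beta-catenin in lymphocytes, read 9.00 in GL-1, 10.83 in CLL-1390 and 4.45 to 4.95 in the rest. NFE2, a factor of megakaryocytes and red cell precursors, stood at 8.74 and 8.87 against 5.10 to 5.55. In both cases the 3 other lines were under the controls, and the gaps of 4.06 and 3.19 came to 2.24 and 1.98 with values floored there. GFI1B, a repressor needed in the same lineages, was at 9.42 and 11.49 in the pair, 7.34 in 17-71, 6.45 in CL-1 and 6.94 in CLGL-90. ERG, an ETS factor of stem cells, read 7.98 and 7.34 against at most 5.58. MEIS1, a homeobox partner of HOX proteins, was 8.74 and 8.17 against 6.84 to 7.02. These 5 factors and LMO2 had gaps of log2 1 or more. ZEB2 and HHEX followed with gaps of 0.85 and 0.40, while GATA3, RUNX1 and ETV6 had gaps of at most 0.19.

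Several factors of the same kind did not follow. MYB was as high in CL-1 (12.01) as in GL-1 (11.89) and CLL-1390 (11.23). SPI1, the master factor of myeloid cells, was at 8.94 in GL-1 and 5.43 in CLL-1390, and the high line outside the pair was 17-71 at 9.45. TAL1 and GATA2, usual partners of LMO2, lay under the controls in all 5 lines. TOX, which directs early T-cell development and was outside this list, read 10.63 and 11.72 in the pair against 7.31, 4.13 and 7.92. MEIS2, the paralogue of MEIS1, ran the other way: it was 3.87 and 4.22 in the pair and 8.50 to 9.37 in the other lines.

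**Figure D2:**
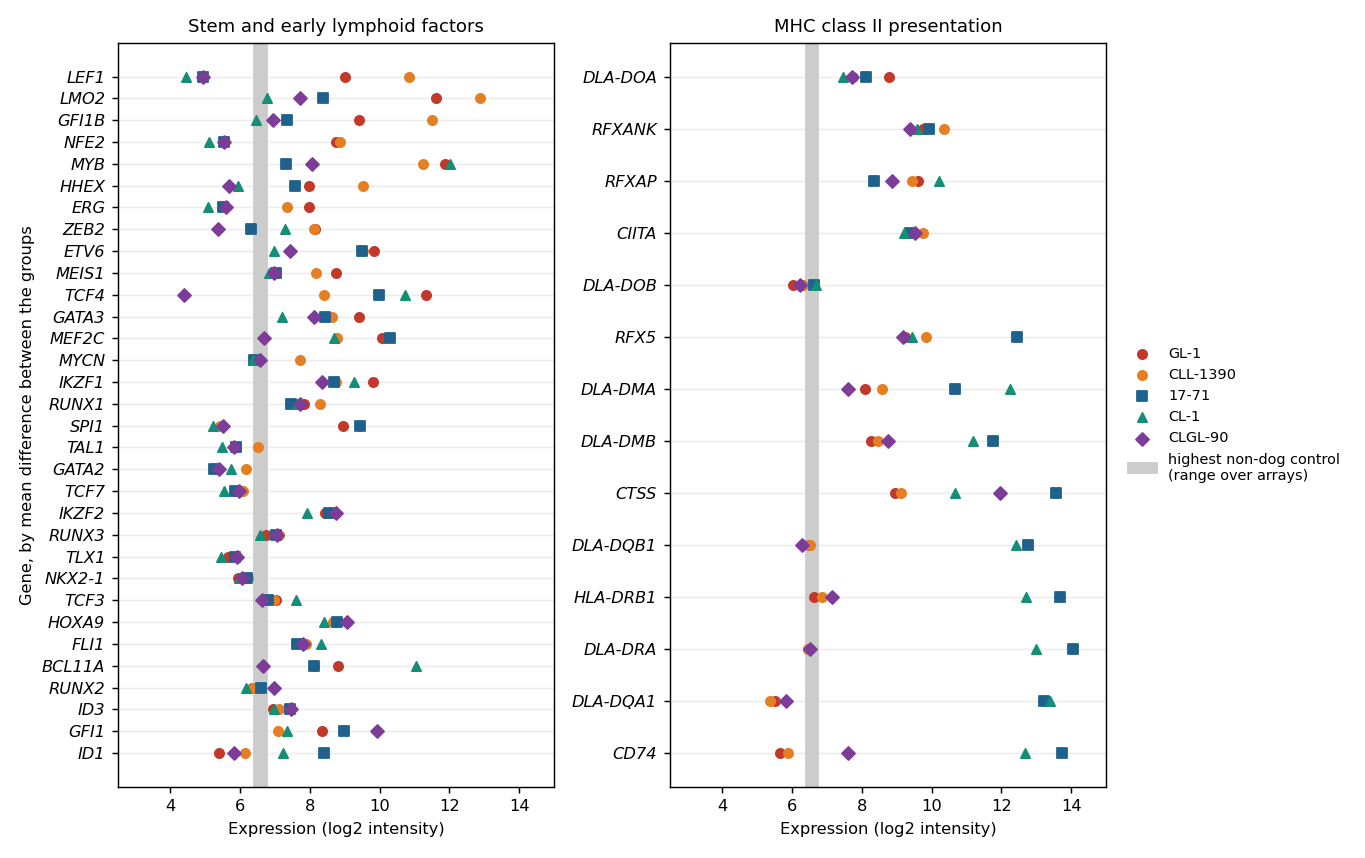
Expression (log2 intensity) of all measured stem and early lymphoid factors (left, 32 genes) and MHC class II genes (right, 14 genes), 1 point per line, each gene by its probe set of highest mean and ordered by the mean difference between the groups. The circles of GL-1 and CLL-1390 lie apart from the others at the top of the left panel, and for most class II genes at the foot of the right panel they lie beside CLGL-90, with 17-71 and CL-1 far to the right.

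Among surface and adhesion genes, 8 of 24 measured members were higher in the pair (33.3%), 0 lower and 16 overlapping. The median difference was 0.75, and of all genes 8.42% were higher. CD151, a tetraspanin that binds laminin receptors, read 10.77 and 10.90 against 7.85, 8.08 and 9.42. ITGA4, the alpha4 chain that pairs with beta1 or beta7 for homing, stood at 9.19 and 10.13 in the pair, with CL-1 next at 7.97 and the other lines at or under 5.97. SELPLG, the ligand of P-selectin, was at 11.63 and 11.41 against 8.51 to 10.34, and ITGA5 at 9.20 and 8.51 against 6.99 to 7.47. These 4 had gaps between 1.04 and 1.35, while the gaps of ITGB3, ITGB5, JAM3 and ITGB2 were at most 0.28. ITGB7, the partner of ITGA4 in gut homing, overlapped, since 17-71 (12.95) and CLGL-90 (12.63) were above both GL-1 (11.43) and CLL-1390 (10.25). OCLN, a protein of tight junctions, was outside the list and read 11.72 and 11.37 in the pair against 6.97, 7.11 and 7.29. MSN, which links membrane proteins to actin, was at 10.72 and 10.56 against at most 9.31.

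Genes of chemokine receptors and lymphocyte egress did not separate as a group. The list also held S1PR1, S1PR2, S1PR3, S1PR4 and CMKLR1. Of 18 genes measured, CCR9 alone was higher (5.56%), CCR7 and CXCR5 were lower (11.1%) and 15 overlapped. The median difference was -0.54, and over all genes 8.42% were higher and 7.24% lower. CXCR5 had a gap of 0.03. CCR7, which guides lymphocytes to lymph nodes, read 5.90 and 5.67 in the pair, 7.56 in 17-71, 9.42 in CL-1 and 6.64 in CLGL-90. The pair lay under the controls for CCR7, as CLGL-90 did, so the gap of 0.74 came to 0.06 with floored values.

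Transporters and enzymes of amino acid handling were found on both sides. GLUL, glutamine synthetase, stood at 12.75 and 13.19 in the pair against 9.19, 8.11 and 9.10. SLC1A3, a glutamate transporter, read 9.70 and 10.73 where the other lines lay between 4.22 and 4.49. SLC43A1, a carrier of large neutral amino acids, was at 9.03 and 9.08 against 4.95 to 5.35. ASNS, asparagine synthetase, separated by only 0.49, because CL-1 at 12.70 was close to the pair at 13.19 and 13.48 while 17-71 was at 10.39 and CLGL-90 at 6.45. On the lower side were PYCR1, the last enzyme of proline synthesis, at 7.03 and 7.28 against 9.85 to 10.57, and BCAT1, which transaminates branched-chain amino acids, at 9.58 and 8.42 against 10.96 to 11.68. SLC16A1, the lactate and pyruvate carrier MCT1, read 4.14 in GL-1 and 4.36 in CLL-1390 and 9.47, 8.79 and 8.09 in the other lines. The 28 listed genes of amino acid and nucleotide metabolism lay on both sides. Of these, 2 were higher (7.14%), 3 lower (10.7%) and 23 overlapping, with a median of -0.16. Over all genes the shares were 8.42% and 7.24%. NT5C2, a nucleotidase that removes phosphate from purine nucleotides, was one of the genes on which the pair was most alike, at 10.54 in both lines against 8.08 to 8.99.

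Further genes with wide gaps had varied roles. TFPI, an inhibitor of the tissue factor pathway of clotting, was at 8.76 in GL-1 and 11.00 in CLL-1390, compared with 3.07 to 3.12. TIMP2, an inhibitor of matrix metalloproteinases, read 10.16 and 11.99 against 5.78 to 7.46. PDGFD, a platelet-derived growth factor, stood at 10.21 and 9.72 in the pair and at 4.90 to 5.41 elsewhere. Its relative PDGFC was reversed, at 5.69 in each line of the pair and at 7.80, 10.67 and 11.04 in 17-71, CL-1 and CLGL-90. DSTN, which depolymerises actin, was at 8.80 and 11.62 against 3.47 to 3.84, and all 3 of its probe sets separated the groups. On its brightest probe set the other lines read 6.43 to 7.08, just above the controls, and the gap was 1.86. TPM4, a tropomyosin of actin filaments, read 4.93 and 4.53 against 9.47, 11.92 and 9.56 on its probe set of widest gap, and 4 of its 5 other probe sets separated the same way. Its brightest probe set did not, at 9.42 and 9.53 in the pair against 9.60, 9.40 and 9.87, so TPM4 is not among the 40 lower genes and its direction depends on the probe set. GCSAML, NRN1, GLT8D2 and SLC27A3 completed the widest higher gaps, at 5.66, 3.95, 4.17 and 3.14.

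**Figure D3:**
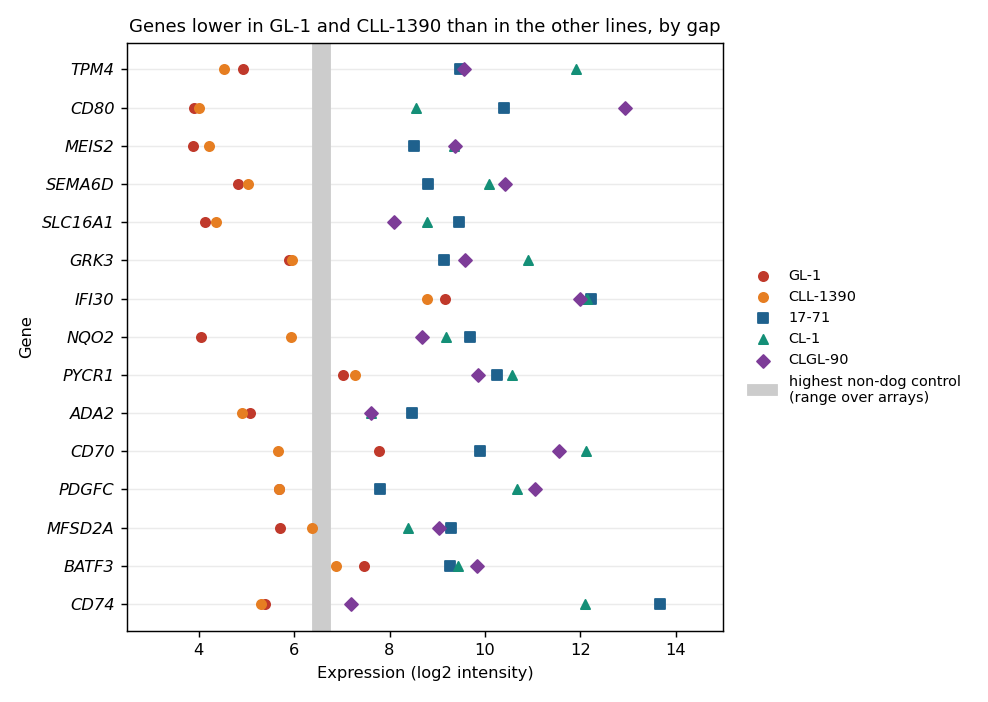
Expression (log2 intensity) of the 15 genes with the widest gaps below the other lines, 1 point per line and gene, each by its probe set of widest gap and drawn as for the higher genes. The circles of GL-1 and CLL-1390 lie left of all other symbols in every row, from TPM4 with a gap of 4.55 to CD74 with 1.79, and for IFI30, PYCR1 and BATF3 both circles lie to the right of the grey band.

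Some genes of antigen presentation and co-stimulation were also on the lower side, and others overlapped, among them CD40 and CD83. CD80, the ligand by which antigen-presenting cells engage CD28 and CTLA4, read 3.91 in GL-1 and 4.01 in CLL-1390, compared with 10.39 in 17-71, 8.55 in CL-1 and 12.93 in CLGL-90. CD70, the ligand of CD27, stood at 7.78 and 5.66 against 9.91, 12.13 and 11.56. IFI30, a lysosomal thiol reductase that prepares antigens for class II loading, was at 9.17 and 8.79 against 11.99 to 12.22, well above the controls in all 5 lines. CTSS, the protease that trims the invariant chain, read 8.94 and 9.13 in the pair and 13.56, 10.68 and 11.97 in the others. BATF3, an AP-1 factor of dendritic and activated T cells, was at 7.46 and 6.88 against 9.27 to 9.84.

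Of 14 measured MHC class II genes, 6 were lower in the pair (42.9%, beside 7.24% of all genes), 0 higher and 8 overlapping. The median difference was log2 -2.01. For CD74 the probe set of widest gap read 5.39 in GL-1 and 5.30 in CLL-1390, compared with 13.66 in 17-71, 12.09 in CL-1 and 7.18 in CLGL-90. The structural genes showed the same layout with almost no gap. DLA-DRA, for example, was 6.47 in both lines of the pair and 6.51 in CLGL-90, beside 14.05 in 17-71 and 13.00 in CL-1. Low class II genes were therefore shared by the pair and CLGL-90, and the gap in DLA-DRA, DLA-DQA1, DLA-DMB and HLA-DRB1 was at most 0.31. For DLA-DRA and DLA-DQA1 the pair and CLGL-90 were all under the controls, and each gap was 0.06 with floored values. These 2 genes thus count as lower only in rank, and the other probe set of DLA-DQA1 overlapped. CIITA, the switch for class II transcription, read 9.20 to 9.76 in all 5 lines and overlapped. Class II genes are close relatives, and their probe sets may cross-hybridise.

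The lineage markers did not set the pair against the other lines as T against B. CD3D, a chain of the T-cell receptor complex, was at 9.78 in GL-1, 10.89 in CLL-1390 and 13.51 in CLGL-90, against 5.14 in 17-71 and 5.44 in CL-1. CD3G (10.01 and 8.86), CD7 (8.92 and 9.25) and LCK (10.65 and 11.44) were likewise above the controls in both lines of the pair. All 3 were also high in CLGL-90, and LCK was at 8.88 in CL-1. CD3E, a further CD3 chain, did not follow. It read 7.91 and 8.48 in the pair, 8.13 in 17-71, 7.81 in CL-1 and 10.24 in CLGL-90. Other T-cell genes were under the controls in both lines, among them CD2 (5.71 and 6.30), CD247 (5.85 and 6.58), SH2D1A (3.94 and 4.24) and CTLA4 (5.02 and 4.91). GL-1, which carries a B-cell label, thus shared some T-cell genes with CLL-1390. Its B-cell genes were mixed, with MS4A1 at 5.83, under the controls, and PAX5 at 6.99, within the 6.83 to 7.18 of all lines. CD79A was at 7.83 in GL-1 and 5.15 to 5.80 in the other 4 lines, and EBF1, an early B-cell factor, at 7.71 and 6.23 to 6.41. CL-1, which carries a T-cell label, had CD3D and CD3G under the controls and CD247 at 11.16. Of 22 T-lineage genes, 4 were higher in the pair (18.2%), 2 lower (9.09%) and 16 overlapping, with a median of 0.00. Over all genes these shares were 8.42% and 7.24%. Of the 4, LEF1 had a gap of 4.06, UBASH3A 0.70, GATA3 0.19 and CD8B 0.02. With floored values the gap of UBASH3A came to 0.08. The 2 lower genes, CTLA4 and CD8A, had gaps of 0.43 and 0.05 that did not remain with floored values. Of 15 B-lineage genes, 0 were higher and 2 lower (13.3%), with a median of -0.10. BTK, the kinase of B-cell and myeloid receptor signalling, was shared with 17-71: it read 11.46 and 11.23 in the pair, 11.52 in 17-71, 3.93 in CL-1 and 4.68 in CLGL-90.

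Markers of other blood cells were measured beside CA2 and MS4A2, since both are known from cells other than lymphocytes. Of 18 mast cell and basophil genes, 3 were higher (16.7%, beside 8.42% of all genes) and 15 overlapping, with a median of 0.21. MS4A2 was the only one with a gap of log2 1 or more. The chains that join MS4A2 in the IgE receptor were high in GL-1 and 17-71 but not in CLL-1390. FCER1A was at 10.91 and 12.14 in those lines and at 7.31 in CLL-1390, and FCER1G at 10.09 and 11.09 against 5.41. CPA3, a mast cell protease, was under the controls in all 5 lines, and KIT was higher in 17-71 (10.46) than in GL-1 (7.76) or CLL-1390 (7.99). Of 21 erythroid and megakaryocyte genes, 5 were higher (CA2, NFE2, ITGB3, GP9 and KLF1, 23.8%), 0 lower and 16 overlapping, with a median of 0.44. CA2 and NFE2 had gaps of log2 1 or more, and the gaps of the other 3 were at most 0.28. GATA1, the master factor of both lineages, read 7.41 in GL-1, 8.36 in CLL-1390 and 7.31 to 7.57 in the other lines, an overlap. In bulk RNA of a culture, fewer cells of a type and less RNA per cell cannot be told apart, and the part of such cells in the shared genes was not tested.

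Myeloid genes set GL-1 apart from CLL-1390. LYZ, lysozyme, was at 12.01 in GL-1 and 3.77 in CLL-1390, with 17-71 at 12.39 and the remaining lines at 3.28 and 4.02. S100A9 read 10.32 in GL-1, 4.55 in CLL-1390 and 11.22 in 17-71, and AIF1 read 11.76, 6.53 and 11.46. These genes joined GL-1 to 17-71 and left CLL-1390 with CL-1 and CLGL-90. Of 22 granulocyte and macrophage genes 4 were higher in the pair (18.2%, beside 8.42% of all genes) and 18 overlapped. The gaps were at most 0.47, and the median difference was 0.46. With floored values the gap of CD14 remained, at 0.06, and those of MPO, CEBPE and TREM1 did not. GZMA, a cytotoxic protease, was at 11.54 in CLGL-90 and at 5.27 to 5.60 in the other 4 lines. Of 17 cytotoxic and natural killer genes 16 overlapped and 1 was lower in the pair (5.88%, beside 7.24% of all genes), with a median of -0.77. Fibroblast (1 of 14 higher), endothelial and epithelial (1 of 12 higher) and plasma cell genes (1 of 7 lower) had gaps of at most 0.09.

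**Figure D4:**
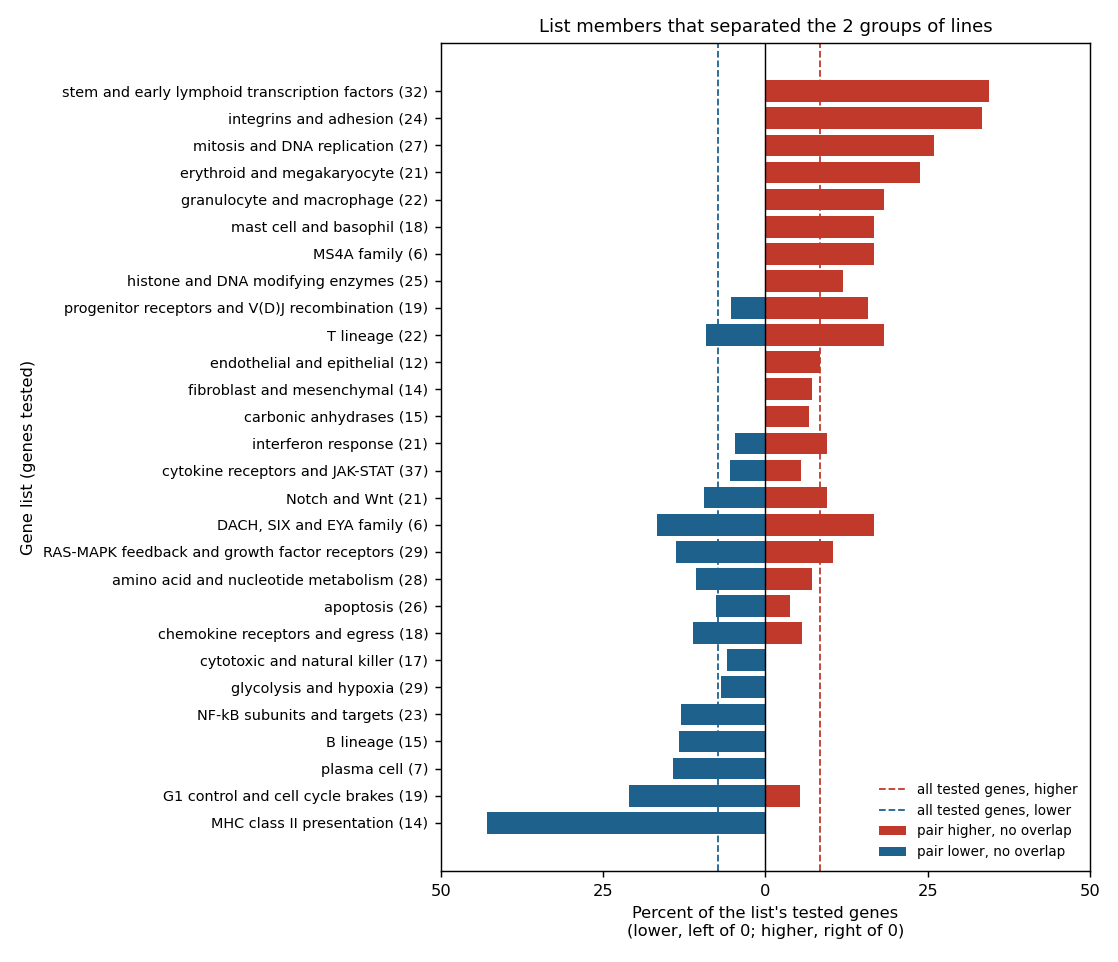
Percent of the measured genes of 28 lists that were higher (red, right of 0) or lower (blue, left of 0) in the pair without overlap, with the number of genes measured in brackets and dashed lines for all 14164 genes (8.42% higher, 7.24% lower). Bars reach 34.4% higher for stem and early lymphoid factors, which include the marker LMO2, 33.3% higher for integrins and adhesion and 42.9% lower for MHC class II genes, and lists of 6 or 7 genes change by over 14 points with 1 gene.

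Cell cycle genes differed in small steps. Of 27 mitosis and DNA replication genes, 7 were higher in the pair (25.9%), 0 lower and 20 overlapping. The median was 0.31, with no gap above 0.48. Over all genes 8.42% were higher and 7.24% lower. MCM6, a subunit of the replicative helicase, read 13.88 and 13.93 against 13.30 to 13.40, and CDC20, an activator of the anaphase-promoting complex, 12.37 and 12.80 against 11.59 to 11.93. Of the 7, 5 were subunits of that helicase (MCM2, MCM3, MCM5, MCM6 and MCM7). Of 19 genes of G1 control and cell cycle brakes, 1 was higher (5.26%), 4 were lower (21.1%) and 14 overlapped, with a median of 0.01. The D-type cyclins in it, which start the cycle with CDK4 and CDK6, divided. CCND3 was higher in the pair, at 10.16 and 10.01 against 8.62, 8.74 and 9.21. CCND2 read 12.37 in GL-1 and 7.16 in CLL-1390, both under the 13.40 to 14.19 of the other lines, and CCND1 read 7.67 and 6.85 against 12.34, 9.04 and 7.88. The pair was thus higher for one D cyclin and lower for the other two, and for CCND2 the lines of the pair stood far apart. MYC was slightly lower, at 10.40 and 10.05 against 10.61 to 11.17.

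Signalling lists gave few separated genes. Of 23 NF-kB subunits and targets, 0 were higher, 3 lower (13.0%) and 20 overlapping, with a median of -0.63. Over all genes 8.42% were higher and 7.24% lower. NFKBIA, the inhibitor that NF-kB itself induces, had the widest gap of the 3, at 11.04 and 9.79 against 11.98 to 12.52. SOD2 and TNFAIP3 followed with 0.14 and 0.12. The other probe set of SOD2 overlapped. Both lines of the pair were under the controls for TNFAIP3, and its gap did not remain with floored values. Among 37 cytokine receptor and JAK-STAT genes, 2 were higher and 2 lower (5.41% each). STAT5A read 9.07 and 10.65 against 7.23 to 8.86, and IL6ST, the shared chain of the interleukin-6 receptor family, 4.06 and 4.93 against 6.29 to 6.56. All values of IL6ST but that of CL-1 were under the controls, and its gap of 1.36 did not remain with floored values. Of 21 Notch and Wnt genes, 2 were higher and 2 lower (9.52% each), near the shares over all genes. CTNNB1, beta-catenin, was higher by a gap of 0.61, at 12.14 and 12.34 against 11.40 to 11.54, whereas AXIN2, a target of the same pathway, overlapped at 7.74 to 8.14 in all lines. LYN, a SRC-family kinase, was at 11.00 and 10.66 against 9.05, 6.15 and 7.97, and OAS1 at 8.74 in both lines of the pair against 7.21 to 7.55.

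The remaining lists held few separated genes. Of 26 apoptosis genes 1 was higher (3.85%) and 2 were lower (7.69%). The counts were 0 and 2 (6.90%) of 29 glycolysis and hypoxia genes, and 2 (9.52%) and 1 (4.76%) of 21 interferon response genes. The medians were -0.09, 0.10 and -0.04, and over all genes 8.42% were higher and 7.24% lower. Of 29 RAS-MAPK genes 3 were higher (10.3%) and 4 lower (13.8%). DUSP10, a phosphatase of stress kinases, had the only gap of log2 1 or more among them, at 6.12 and 7.75 against 4.24 to 4.73. GL-1 was under the controls for DUSP10, and the gap of 1.39 did not remain with floored values. Of 25 histone and DNA modifying enzymes 3 were higher, with gaps of at most 0.18. CA2 was the only separated member of 15 carbonic anhydrases and MS4A2 of 6 MS4A family genes. DACH1 and EYA2 were the separated members of 6 genes of the DACH family and its partner families, and EYA2 was lower in the pair by a gap of 0.34. The pair and CLGL-90 were under the controls for EYA2, and its gap came to 0.06 with floored values. Of 19 progenitor receptor and V(D)J recombination genes, 3 were higher (ENG, DNTT and CSF2RB, 15.8%) and 1 lower (CD38, 5.26%, gap 0.007). ENG, a co-receptor of TGF-beta found on stem cells and endothelium, read 7.51 and 8.07 against 5.15 to 5.37. Its gap of 2.14 came to 0.75 with floored values. DNTT read 8.59 in GL-1 and 6.04 in CLL-1390. CLL-1390 was under the controls for DNTT, and the gap of 0.30 did not remain with floored values. CSF2RB had a gap of 0.03, and its 2 other probe sets overlapped. FLT3 and CD34, which mark progenitors, were each high in a single line of the pair: FLT3 was 13.00 in GL-1 and 7.98 in CLL-1390, and CD34 was 7.01 in GL-1 and 10.27 in CLL-1390.

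Among the 95 genes with a higher gap of log2 1 or more, GL-1 and CLL-1390 lay within log2 0.5 of each other in 44 and within log2 1 in 71. The median absolute difference within the pair was 0.56, and the median range over the other 3 lines was 0.80. A range over 3 lines tends to be wider than a difference within a pair. These medians therefore do not show whether the pair was more alike than the other lines. CLL-1390 was the higher line of the pair in 56 of these genes and GL-1 in 38. RGS18, a regulator of G-protein signalling in blood cells, differed most, at 10.85 in GL-1 and 5.85 in CLL-1390, compared with 4.29 to 4.50, and since CLL-1390 was under the controls it counts as shared only in rank. ARMCX5 was the opposite case, at 5.06 in GL-1 and 8.54 in CLL-1390. VAMP7, a vesicle fusion protein, was among the most even, at 11.02 and 11.01 against 8.81 to 8.98. The line nearest to the pair was 17-71 in 40 of the 95 genes, CLGL-90 in 32 and CL-1 in 23. For the 40 lower genes the nearest line was CLGL-90 in 17, 17-71 in 14 and CL-1 in 9, and 22 of them were within log2 0.5 in the pair.

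**Figure D5:**
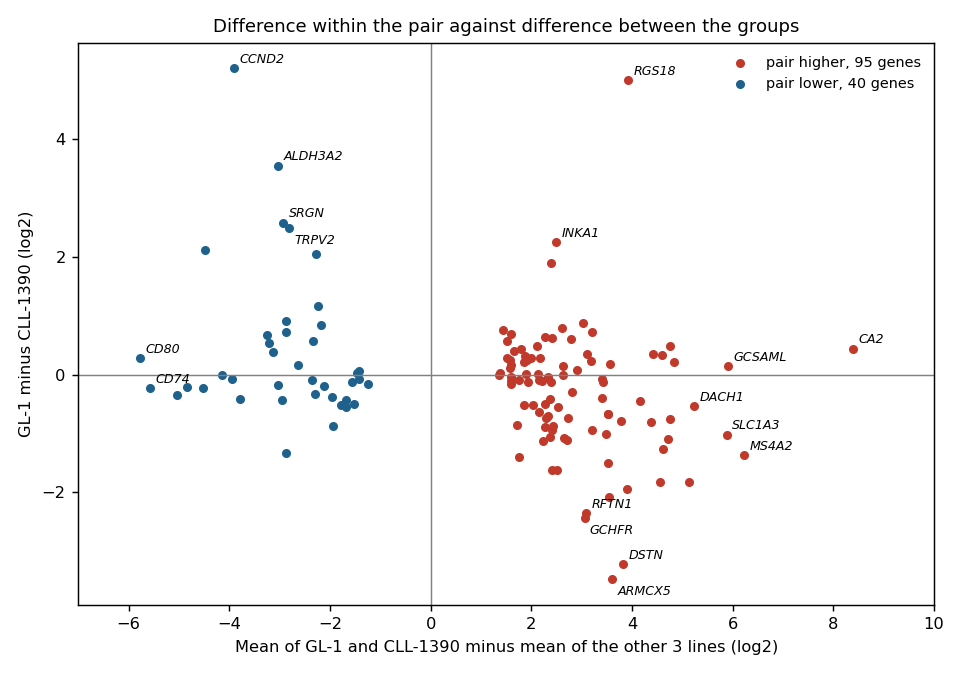
Difference between GL-1 and CLL-1390 (vertical axis, log2) against the mean of the pair minus the mean of the other 3 lines (horizontal axis, log2) for the 95 higher and 40 lower genes with a gap of log2 1 or more, 1 point per gene by its probe set of highest mean. Most points lie near 0 on the vertical axis, RGS18 and CCND2 lie furthest above it, and ARMCX5 and DSTN lie furthest below it.

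Other probe sets of the same genes mostly gave the same picture. Of the 95 higher genes, 51 had further tested probe sets, and 69 of these 79 probe sets (87.3%) also separated the groups in the same direction. On the lower side it was 34 of 42 (81.0%) in 25 genes. The brightest probe set gave a narrower gap than the widest for some of the genes with the widest gaps, at 2.89 for TFPI, 1.92 for SLC43A1, 1.43 for SLC27A3, 1.14 for NQO2 and 0.68 for MFSD2A. In 32 of the 95 higher genes all 3 other lines were at or under the controls, and in 45 none was. With values floored at the controls, the gap narrowed to 3.30 for GCSAML, 2.003 for TFPI, 2.94 for SLC1A3, 2.04 for DSTN, 1.49 for GLT8D2 and 2.27 for SLC43A1. On the lower side it narrowed to 2.77 for TPM4, 1.85 for CD80, 1.81 for MEIS2, 1.39 for SLC16A1, 1.10 for PDGFC and 0.49 for CD74. Both lines of the pair still lay apart from the other 3 on these probe sets. At the edge of the log2 1 limit, UBASH3B (1.0002) and ALPL (1.006) were just inside on the higher side and LONP2 and DYRK3 (both 0.98) just outside. On the lower side LYRM2 (1.0004) and SBF2 (1.014) were just inside and RBM38 and ETNK1 (both 0.98) just outside. In the reference gene order, UBASH3B and SORL1 were neighbours, as were GPRC5B and IQCK, among the higher genes, and SEMA6D and SLC24A5 among the lower ones. SEMA6D, a transmembrane guidance protein, read 4.82 and 5.03 in the pair against 8.80, 10.08 and 10.42, while SLC24A5 was at 13.49 in CLGL-90 and between 5.35 and 7.62 in the other 4 lines.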

How the data were processed

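Per the submitters' processing notes, the authors used GCRMA, which corrects background, normalizes between arrays and summarises probes. The deposited unit is a log2 intensity for each probe set. The GCRMA version and scanner settings are not stated here. Of 43035 probe sets, 111 Affymetrix controls were left out, and 36661 reaching log2 5 on at least 2 arrays were used. A probe set could pass through the pair alone. Symbols came from the platform annotation, whose names can be old: 29254 probe sets had 1 symbol, 439 several and 13231 none. Identifiers of 27680 (94.6%) were found in the RefSeq gene table of assembly UU_Cfam_GSD_1.0, used for names and gene order. Gaps were computed with Python 3.11.15 and pandas 2.3.3 and checked on simulated data.

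Genes named were the 5 markers, the 20 widest higher and 15 widest lower gaps (high side at log2 7 or above, of any other probe sets, at least as many separating the same way as not), up to 4 list members per direction, those at the edge of the log2 1 limit, and those most and least alike within the pair. Other genes were chosen after their values were seen. The lines, the 29 lists and the rules were chosen with earlier results of these data known. The precision is limited by the 5 arrays. Alternatives were other filters, normalizations, floors and gene summaries, and each line left out. Promoter sequences were not used here. Lymph node specimens named in the protocol were not analysed here.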

Additional observations from a re-analysis of the deposited data

How the results depend on the processing

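The pair was the most correlated of the 10 under no filter (0.943) and under a filter at log2 7 (0.860). Without the probe sets that separate the groups its correlation was 0.913 and that of GL-1 with 17-71 was 0.927. That removal takes out exactly the probe sets on which the pair lay apart from 17-71. It favours GL-1 with 17-71 by construction, so nothing is read from this change. Over the other filters, normalizations, floors and gene summaries, the 95 higher genes ranged from 80 to 123 and the 40 lower genes from 31 to 47. With the high side at log2 7 or above in every line, an alternative chosen after seeing the data, 1566 probe sets were lower in place of 2579. Leaving out a line raised all counts, as fewer lines had to separate: 4925 to 8944 higher and 4391 to 6945 lower probe sets. The gene counts, higher and then lower, were 168 and 123 without 17-71, 152 and 84 without CL-1, 164 and 152 without CLGL-90, 338 and 246 without GL-1, and 283 and 138 without CLL-1390. With values floored at the highest non-dog control, 25 of 126 named genes no longer separated the groups. For 3 of them, IL6ST (floored gap -0.23), OSM (-0.31) and LRP6 (-0.31), the mean difference between the groups also turned sign, with all of their values, or all but 1, replaced by the floors. Quantile normalization ended 8 gaps and centring on medians ended 4. No paired analysis was possible because the result comes from no test and the replicate numbers only name lines. Signal over background limits the low sides: in 32 of 95 higher and 16 of 40 lower genes every low line was at or under the controls.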
